A study of Mus musculus with 10 samples.

Results

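The translation initiation factors described here are 46 protein-coding genes on the autosomes with symbols from Eif1 to Eif6, out of 20206 genes in the table of embryonic stem cell (ESC) expression and 14354 genes tested. They were chosen by a rule on symbol and level that used no difference between the diets, though with earlier results of these data known. A symbol of this kind was carried by 56 rows, of which 4 were kinases of eIF2 alpha, 1 was a pseudogene and 3 were on the X or Y chromosome. Of the 48 genes left, Eif4ebp3 and Eif4e1b had means of 9.16 and 4.82 over the 10 lines, under the minimum of 10, and the other 46 were kept. The series holds RNA sequencing of 5 ESC lines from offspring of mothers on low protein diet (LPD, 9% casein) and 5 from offspring of mothers on normal protein diet (NPD, 18% casein), all derived at the blastocyst stage. All 10 lines were wild-type C57BL/6, labelled male, and the mothers, aged 7 to 9 weeks, received the isocaloric diets from mating to embryonic day 3.5 only. Each line came from a single embryo of a different mother and was grown without further diet treatment. It was derived on feeder fibroblasts and, for RNA, cultured without them. The lines are named LPD 1, 4, 6, 20 and 40 and NPD 8, 15, 21, 36 and 51, and values are given in this order. Values are normalized estimated counts per gene.

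Translation initiation brings the initiator methionyl-tRNA, the small ribosomal subunit and the mRNA together. The factor eIF2 carries the tRNA, eIF2B recharges eIF2 with GTP, eIF1, eIF1A, eIF3 and eIF5 hold and steer the scanning subunit, and eIF4F (eIF4E, eIF4G and eIF4A) binds the mRNA cap. Amino acid supply is known to act on this step through phosphorylation of eIF2 alpha and through mTORC1, which frees eIF4E from its binding proteins, so mRNA levels of the factors are a part of its control only.

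The promoters of the factors were compared for the E-box CACGTG, the motif bound by Myc and related proteins, on both strands of 300 bases from 250 before to 50 after each RefSeq gene start (GRCm38.p6). Of the 46 factors, 36 had a promoter in the table, and 10 of these (27.8%) held an E-box, against 11.6% of the 10726 tested protein-coding genes with a promoter and 8.09% of all 27025 genes of the table. The 10 were Eif1b, Eif3a, Eif3f, Eif3k, Eif4a1, Eif4e, Eif4g1, Eif4h, Eif5a and Eif5a2. The motif TGATGNAA, bound by C/EBP and ATF factors, which shares no overlap with the E-box, was found in 0 of the 36 promoters, in 2.76% of the tested protein-coding genes with a promoter and in 4.51% of all genes of the table, so a count of 0 is near the background. To show where the E-box lies in factors of different complexes, 30 bases around it are given 5′ to 3′ with the motif in capitals, for 5 windows outside annotated exons.
Eif3f (chr7:108934335-108934364, plus strand, 68 bases before the gene start): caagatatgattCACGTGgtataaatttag
Eif3k (chr7:28981915-28981944, minus strand, 44 bases before the gene start): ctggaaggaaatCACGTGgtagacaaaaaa
Eif4a1 (chr11:69672595-69672624, minus strand, 189 bases before the gene start): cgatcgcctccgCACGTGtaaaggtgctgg
Eif4g1 (chr16:20672661-20672690, plus strand, 54 bases before the gene start): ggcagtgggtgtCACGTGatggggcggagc
Eif5a (chr11:69921443-69921472, minus strand, 74 bases before the nearest gene start): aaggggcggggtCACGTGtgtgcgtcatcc
The gene starts named here are RefSeq starts. The windows of Eif4g1 and Eif5a lie inside the GENCODE M21 spans of these genes, which begin further upstream. These matches are letters in a window and were not tested as binding sites. Of the 10 factors with an E-box, 6 had a log2 fold change above 0 and 4 below 0 between the diets, with a median of 0.02, against -0.01 for the 26 factors whose promoter held none.

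Depth differed between the groups. Depth was estimated in read equivalents, from the value that a single read added to low genes, and was 20429977 to 23171910 in the NPD lines and 5846570 to 24126510 in the LPD lines, lowest in LPD 4. The lowest value of any factor was 29.9 read equivalents, for Eif4e3 in LPD 4. Among markers, 10 of 10 pluripotency genes had means of at least 100, with sums of 103230 to 133720 in LPD and 97759 to 134020 in NPD. The 10 fibroblast markers summed to 486 to 3606 in LPD and 519 to 5914 in NPD, highest in LPD 6 and NPD 15, the 8 primitive endoderm markers to 3403 to 21357 and 2075 to 15623, and the 6 trophectoderm markers to 837 to 4180 and 797 to 1598. Means of at least 100 were held by 4 of the 10 fibroblast, 7 of the 8 primitive endoderm and 3 of the 6 trophectoderm markers. No marker on these lists was at 0 in all lines, and the part of other cell types in the results below was not tested. In the bulk RNA of a line, fewer cells of a type and less RNA per cell cannot be told apart. Sex-linked values set LPD 4 and NPD 15 apart, in different ways. Over 7 Y-linked genes, the median log2 deviation was -2.76 in LPD 4 and -7.05 in NPD 15. It was -0.03 to 0.16 in the other lines. Over 334 X-linked genes it was 0.49 in NPD 15, 0.001 in LPD 4 and -0.06 to 0.03 in the rest. NPD 15 was thus low in Y-linked and high in X-linked values, and LPD 4 low in Y-linked values only. Both are labelled male, and the cause was not tested. Both lines were kept, and the comparison was repeated without them.

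The factors were among the more abundant transcripts of these ESCs. Per length of transcript, 44 of the 46 lay above the median of the 13694 protein-coding genes tested, 143 per kb, and 30 lay in the top 10%. Eif4a1, the main RNA helicase of eIF4F, was highest with 19932 per kb, followed by Eif5a, the hypusine-containing factor that also acts in elongation, with 17952 per kb, Eif2s2, the beta subunit of eIF2, with 10573 per kb, and Eif1, which keeps the scanning ribosome from starting at a wrong codon, with 6668 per kb. The lowest were the variant cap-binding protein Eif4e3 with 31.8 per kb and the second eIF5A gene, Eif5a2, with 51.8 per kb. The length used was the median of a gene's annotated protein-coding transcripts, so a level per length is uncertain where these differ, as for Eif4e (526 to 4991 bases). 

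**Figure D1:**
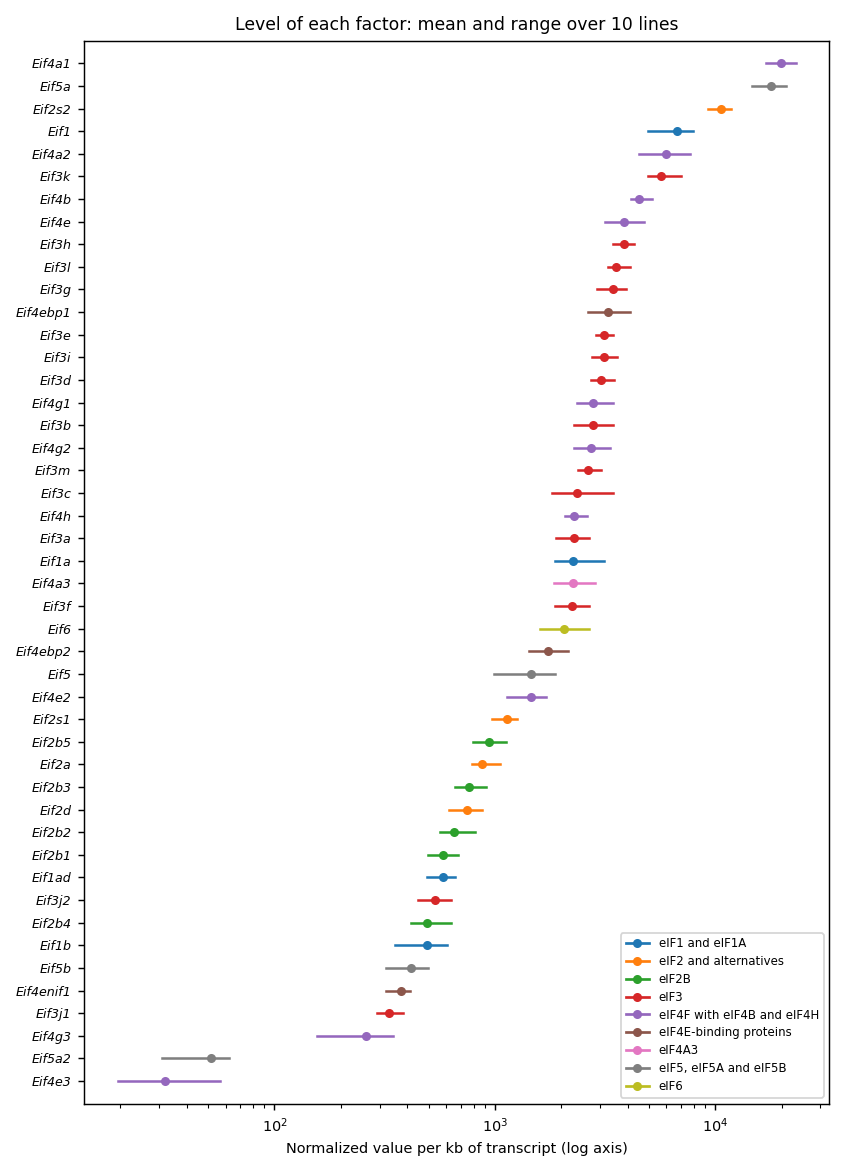
Normalized value per kb of transcript on a log axis for the 46 factors, with the mean over 10 lines as a point and the range over lines as a bar, colored by complex. Eif4a1 and Eif5a lie highest at 19932 and 17952 per kb and Eif4e3 lowest at 31.8 per kb.

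Levels also differed inside complexes. Of the 12 eIF3 subunits other than the 2 eIF3J genes, the level per kb ran from 2241 for Eif3f to 5646 for Eif3k, a ratio of 2.52, and to 3847 for the next highest, Eif3h, a ratio of 1.72 over the lowest. The loosely attached subunit eIF3J was encoded by Eif3j1 and Eif3j2, whose transcripts share sequence. Of their 31-base words, 94.9% for Eif3j2 and 38.4% for Eif3j1 also occur in other genes, so their reads cannot be split with certainty. Together the 2 genes held 3120.1 ± 278 in LPD against 2997 ± 294 in NPD (SD, n = 5 each). In eIF2, Eif2s2 had between 8.28 and 11.6 times the level per kb of Eif2s1, the alpha subunit, and the eIF2B subunits lay between 492 per kb for Eif2b4 and 939 per kb for Eif2b5. The X-linked gene of the gamma subunit, Eif2s3x, and its Y-linked copy Eif2s3y were left out by the rule. Eif2s3x had values of 5471 to 7256 in 9 lines and 9400.0 in NPD 15, while Eif2s3y had 1409 to 1744 in 8 lines, 140 in LPD 4 and 7.72 in NPD 15. The sum of both gamma genes was 7324 ± 1132 in LPD against 8179 ± 936 in NPD (SD, n = 5 each).

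The comparison of LPD with NPD addresses whether a protein-poor maternal diet before implantation left a difference in the mRNAs of the initiation factors of derived ESCs. No factor differed between the diets after adjustment over the 14354 genes tested. Adjusted p-values of the factors were 0.839 or higher (limma with Benjamini-Hochberg adjustment). The log2 fold change, LPD against NPD on the log2(value + 1) scale, was above 0 in 28 factors and below 0 in 18, with a median of 0.03, and over all genes tested the median was 0.00 with 50.5% above 0. It was within 0.1 of 0 in 33 of the 46 and in 6179 of all genes tested, which include many with lower values. Among genes with a mean of at least 1000, the median size of the log2 fold change was 0.05 for 42 factors and 0.07 for all 3838 genes.

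At an adjusted p under 0.1, limma called 0 of the 46 factors and 0 of all genes (0.0%). The authors tested transcripts rather than genes, with the program Sleuth, and did list some at a false discovery rate under 0.1. None of those belonged to the 46 factors. At an unadjusted p under 0.05 limma called 2 factors, Eif1 and Eif1a, both higher in LPD, against 5.02% of all genes, or 721. A share of 4.35% of the factors is near this background. The exact Mann-Whitney test gave 0 factors and 516 genes at an unadjusted p under 0.05. In 0 of the 46 factors did all LPD lines lie above or below all NPD lines, against 1.02% of all genes. The intervals also bound what could be missed. In 43 factors the 95% interval of the log2 fold change lay within 0.5 of 0, and in 24 it lay within 0.3. The 3 factors with intervals reaching beyond 0.5 were Eif1, Eif4e3 and Eif4g3. Of all 14354 genes tested, which include many with lower values, the interval lay within 0.5 of 0 in 7060 and within 0.3 in 2411. The count of factors above 0 ranged from 19 to 34 over the alternatives. It was 20 after rescaling to the same total, 21 after quantile normalization and 19 without LPD 20, and it was 34 with depth as a covariate and 31 without LPD 1 or without NPD 51.

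**Figure D2:**
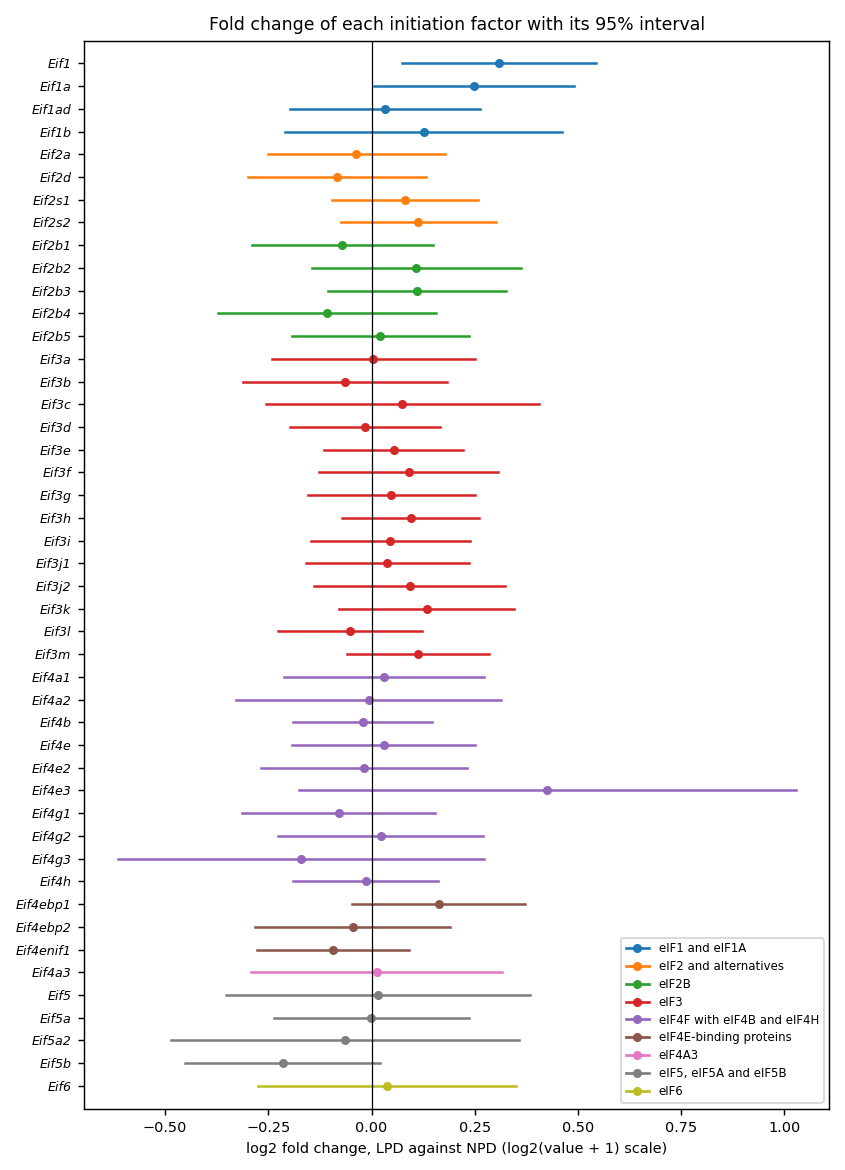
Log2 fold change, LPD against NPD, of each of the 46 factors (point) with its 95% interval from limma (bar), colored by complex and ordered by complex. The intervals of Eif1 and Eif1a alone lie above 0, and that of Eif4e3 is widest, from -0.18 to 1.03.

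The factors of start codon selection, eIF1 and eIF1A, held the only 2 genes with an unadjusted p under 0.05. All 4 factors with an Eif1 symbol, Eif1, Eif1a, Eif1b and Eif1ad, had log2 fold changes above 0, against 50.5% of all genes tested. Their median was 0.19, and 3 of 4 or 4 of 4 were above 0 over the alternatives. The X-linked Eif1ax is not in this count. Eif1 (chr11:100319885-100322096 on GRCm38, by GENCODE M21, as for all gene positions given) had values of 9467, 8309, 10061, 10468 and 10338 in the LPD lines and 6565, 7393, 9621, 7444 and 8477 in the NPD lines. Of the LPD lines, 3 lay above every NPD line, and the groups overlapped, since NPD 21 lay above LPD 1 and LPD 4 and NPD 51 above LPD 4. The means were 9729 ± 882 in LPD against 7900.1 ± 1177 in NPD (SD, n = 5 each). This gave a log2 fold change of 0.31 ± 0.11 (SE, 95% interval 0.07 to 0.54), with an exact permutation p of 0.0397 (two-sided) and adjusted p = 0.839 (limma). It kept an unadjusted p of at most 0.043 in each of the 21 other limma fits, and the Mann-Whitney test gave an exact p of 0.0556. Of the 31-base words of the Eif1 transcripts, 23.0% also occur in other genes, so part of its reads could be assigned elsewhere.

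Eif1a, the autosomal gene of eIF1A, which works with eIF1 in opening the scanning subunit, had values of 4008, 4470.3, 5183, 6105 and 4438 in LPD and 4169, 3726, 4280.2, 3674 and 4356 in NPD. It was highest in LPD 20, and 4 LPD lines lay above every NPD line while LPD 1 lay inside the NPD range. The means were 4841 ± 823 in LPD against 4041 ± 319 in NPD (SD, n = 5 each) and the log2 fold change was 0.25 ± 0.11 (SE, 95% interval 0.01 to 0.49), with an exact permutation p of 0.0714 and adjusted p = 0.987 (limma). The value was 0.16 without LPD 20 and 0.31 without LPD 1. The X-linked gene of the same factor, Eif1ax, left out by the rule, had values of 2093 to 2308 in LPD and 1983 to 2375 in 4 NPD lines, and 3403 in NPD 15. Eif1b, a close relative of Eif1, had values of 482 to 626 in LPD and 364 to 628 in NPD, and the eIF1A-like protein gene Eif1ad had a log2 fold change of 0.03 (95% interval -0.20 to 0.26).

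The eIF2 group, which carries the initiator tRNA, showed log2 fold changes from -0.08 for Eif2d to 0.11 for Eif2s2, with 2 of 4 above 0 and none with an unadjusted p under 0.05. Eif2s2 (chr2:154871410-154892935) had values of 27215, 26561, 24931, 25794 and 28717 in LPD and 22419, 24514, 27252, 22658 and 26543 in NPD. These overlapped throughout, with LPD 40 alone above every NPD line. The log2 fold change was 0.11 ± 0.09 (SE, 95% interval -0.07 to 0.30, exact permutation p = 0.151). Eif2s1 (chr12:78861819-78887010), whose protein is the phosphorylated alpha subunit, had values of 3784, 4079, 3789, 4223 and 4006 in LPD and 3801, 3634, 3296, 3835 and 4294 in NPD. The highest and the lowest of its 10 values were both in NPD lines, 51 and 21, and the log2 fold change was 0.08 ± 0.08 (SE, 95% interval -0.10 to 0.26) (exact permutation p = 0.317). Eif2a and Eif2d, which can deliver tRNA without eIF2, had values of 1816 to 2427 and 1335 to 1891 over the 10 lines.

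In eIF2B, the exchange factor that reloads eIF2 with GTP, 3 of 5 subunits had log2 fold changes above 0 and 2 below, from -0.11 for Eif2b4 to 0.11 for Eif2b3. The latter, the gamma subunit gene (chr4:117019402-117087306), had values of 1198, 1197, 1076, 1272 and 1424 in LPD and 1026, 1023, 1269, 1155 and 1236 in NPD, a log2 fold change of 0.11 ± 0.10 (SE, 95% interval -0.11 to 0.33, exact permutation p = 0.246). The catalytic subunit gene Eif2b5 (chr16:20498817-20509323) had the highest level of the complex, with 2042, 2299.5, 2226, 2872 and 2681 in LPD and 2287, 2262, 2451, 2279 and 2584 in NPD. Its LPD lines spread on both sides of the NPD lines, with 2 above all of them and 2 below, and the log2 fold change was 0.02 ± 0.10 (SE, 95% interval -0.19 to 0.24) (exact permutation p = 0.825). Eif2b4 was 804 to 914 in 4 LPD lines and 1212 in LPD 20, against 885 to 1123 in NPD, and Eif2b1 and Eif2b2 had values of 1005 to 1364 and 901 to 1308 over the 10 lines.

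The scaffold eIF3, which joins the small subunit to the mRNA and the other factors, had 11 of its 14 genes above 0, with a median log2 fold change of 0.05 and a range of -0.06 for Eif3b to 0.13 for Eif3k. No eIF3 gene had an unadjusted p under 0.05. The count was 10 of 14 after rescaling to the same total and after quantile normalization, 8 of 14 without LPD 20, when the median was 0.01, and 12 of 14 with depth as a covariate. Eif3k (chr7:28971372-28981864), a peripheral subunit, had values of 4326, 4384, 3916, 4854 and 5418 in LPD and 3835, 3830.5, 4544, 4083 and 4511 in NPD. LPD 40 and LPD 20 lay above every NPD line and the other LPD lines inside the NPD range, with a log2 fold change of 0.13 ± 0.10 (SE, 95% interval -0.08 to 0.34, exact permutation p = 0.23). Eif3a, the largest subunit, had values from 9653 in LPD 40 to 13753 in LPD 20 with all NPD lines between them, so its range was set by the LPD lines. The core and peripheral subunit genes Eif3d, Eif3e, Eif3g, Eif3h, Eif3i, Eif3l and Eif3m had levels of 2644 to 3847 per kb, and the diets overlapped in each. The widest range of the complex was that of Eif3c, from 6134 in LPD 1 to 11562 in LPD 20, 1.88 times as high, and the narrowest that of Eif3e, 1.19 times.

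In eIF4F and its helpers, 4 of 10 genes were above 0 and 6 below, with a median of -0.01, 1 of 10 was above 0 after rescaling to the same total and after quantile normalization, 2 of 10 without LPD 20, and 6 of 10 with depth as a covariate and without LPD 1, LPD 4 or NPD 51. Eif4e (chr3:138526179-138559696), the cap-binding protein, had values of 2857, 3176, 3156, 3774 and 2507 in LPD and 3206, 3032, 2756, 2971 and 3075 in NPD. Its NPD lines lay inside the range set by LPD 40 and LPD 20, and the log2 fold change was 0.03 ± 0.10 (SE, 95% interval -0.19 to 0.25, exact permutation p = 0.794). Eif4g1 (chr16:20668313-20692884), the main scaffold, had values of 12774, 13836, 14901, 17363 and 15130.0 in LPD and 13715, 15742, 14141, 15928 and 18765 in NPD. The groups overlapped, and the highest value was in NPD 51, with a log2 fold change of -0.08 ± 0.11 (SE, 95% interval -0.31 to 0.15) (exact permutation p = 0.484). The helicase partners Eif4b and Eif4h had values of 11172 to 13912 and 5303 to 6630 over the 10 lines. Eif4e2, a cap-binding protein that does not join eIF4G, had 2058 to 3071, and Eif4g2, an eIF4G relative without a binding site for eIF4E, had 13138 to 19123.

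Eif4a1 (chr11:69666936-69672423) had values of 31815, 33285, 32282, 40991 and 40436 in LPD and 31586, 30198, 38037, 36884 and 38083 in NPD. The ranges of the diets overlapped, and the log2 fold change was 0.03 ± 0.11 (SE, 95% interval -0.21 to 0.27, exact permutation p = 0.817). A share of 31.1% of the words of Eif4a1 transcripts also occurs in other genes, 25.6% in the pseudogene Eif4a-ps4. The variant cap-binding protein gene Eif4e3 (chr6:99625135-99666771) had the largest log2 fold change of all 46 factors and the widest error. Its values were 142, 86.2, 87.7, 48.9 and 99.7 in LPD and 78.8, 90.3, 54.3, 58.4 and 52.1 in NPD, so LPD 1 was highest and LPD 20 lowest of all 10 lines. The log2 fold change was 0.43 ± 0.28 (SE, 95% interval -0.18 to 1.03) (exact permutation p = 0.206). It was 0.25 without LPD 1 and 0.63 without LPD 20. Eif4g3, a second eIF4G gene, varied from 887 in LPD 40 to 1968 in NPD 51, with a log2 fold change of -0.17 (95% interval -0.61 to 0.27).

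The proteins that hold eIF4E away from eIF4G showed no common direction, with 1 of 3 genes above 0. Eif4ebp1 (chr8:27260329-27276674), the classical mTORC1 target, had values of 6066, 6464, 6935, 8161 and 6917 in LPD and 6000.1, 6686, 6696, 5296 and 6128 in NPD. LPD lines 6, 20 and 40 lay above every NPD line and the other 2 among them. The means were 6908 ± 787 in LPD against 6161 ± 578 in NPD (SD, n = 5 each). Its log2 fold change was 0.16 ± 0.10 (SE, 95% interval -0.05 to 0.37), with an exact permutation p of 0.127 and adjusted p = 0.994 (limma). Relative to Eif4e, its level per kb was 0.895 ± 0.114 in LPD against 0.816 ± 0.104 in NPD (SD, n = 5 each), less apart than the spread between lines. Eif4ebp2, the second binding protein gene, had values of 5148 to 6519 in LPD and 5309 to 7695 in NPD, and Eif4enif1, which carries eIF4E into the nucleus, had a log2 fold change of -0.09 (95% interval -0.28 to 0.09).

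Late factors act at start codon recognition and subunit joining. Eif5b (chr1:37998010-38055579), the GTPase of subunit joining, had the lowest log2 fold change of the 46 factors. Its values were 2494, 3234, 3305, 3417 and 2657 in LPD and 3812, 3166, 3087, 3535 and 3876 in NPD. LPD lines 1 and 40 lay below every NPD line, and the other 3 LPD lines lay within the NPD range. The means were 3021 ± 416 in LPD against 3495 ± 361 in NPD (SD, n = 5 each) and the log2 fold change was -0.22 ± 0.11 (SE, 95% interval -0.45 to 0.02), with an exact permutation p of 0.111 and adjusted p = 0.994 (limma). In 6 of the 21 other limma fits its unadjusted p was under 0.05, with values of -0.28 to -0.15 over the fits. Eif5, the GTPase-activating protein of eIF2, varied 1.90 times between lines, from 3501 in LPD 40 to 6635 in LPD 20, with a log2 fold change of 0.02 (95% interval -0.35 to 0.38).

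**Figure D3:**
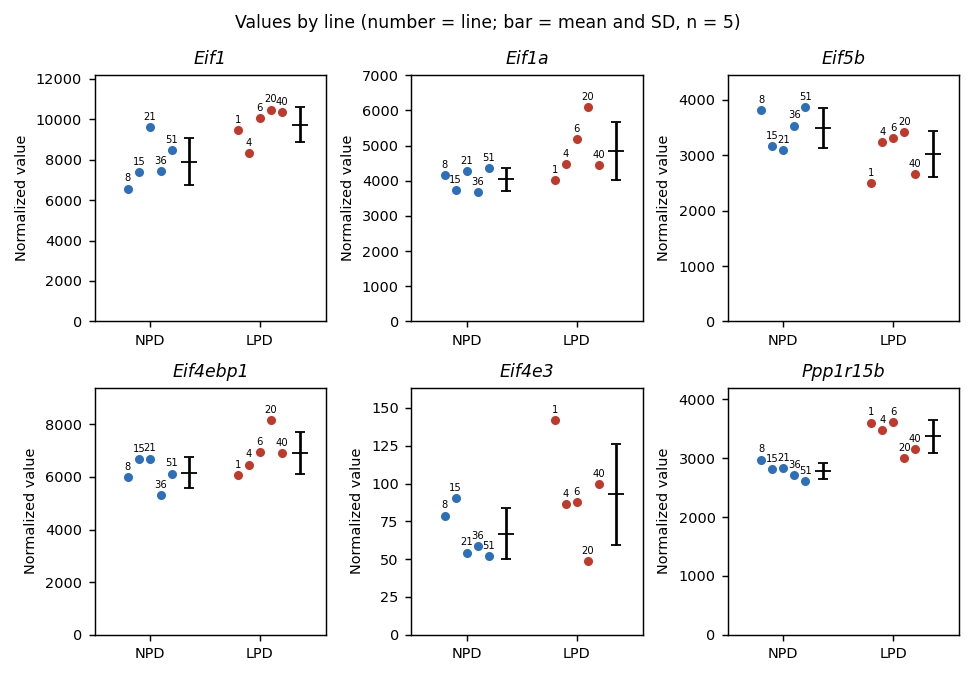
Normalized value of each line (points, labelled with the line number) with the mean and SD of 5 lines per diet for Eif1, Eif1a, Eif5b, Eif4ebp1 and Eif4e3 and for the eIF2 phosphatase subunit gene Ppp1r15b, each axis starting at 0. The diets overlap in the 5 factors and not in Ppp1r15b, where LPD lines start at 2995 and NPD lines end at 2976. Of all genes tested, 1.02% had groups that did not overlap.

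Eif5a (chr11:69916714-69921958) had values of 21327, 22762, 18865, 26989 and 25549 in LPD and 20443, 22218, 24878, 22353 and 25032 in NPD. Its means were 23098 ± 3252 in LPD against 22985 ± 1951 in NPD (SD, n = 5 each). The log2 fold change of -0.0004 (95% interval -0.24 to 0.24) was the smallest in size of the 46 factors, with an exact permutation p of 1.0. Eif4a3 (chr11:119288363-119300089), a helicase of the exon junction complex with an eIF4A fold, had values of 3040.4, 2934, 2981, 4049 and 4053 in LPD and 2828, 2804, 4291, 3336 and 3684 in NPD. It was highest in NPD 21, LPD 40 and LPD 20, with no difference between the diets beyond the spread, and its log2 fold change was 0.01 ± 0.14 (SE, 95% interval -0.29 to 0.32, exact permutation p = 0.921). Eif6 (chr2:155819832-155826925), which keeps the large ribosomal subunit from joining too early, had values of 2386, 2511, 2954, 3839.6 and 3371 in LPD and 2638, 2303, 3022, 3239 and 3389 in NPD. It was highest in LPD 20 and lowest in NPD 15, with a log2 fold change of 0.04 ± 0.14 (SE, 95% interval -0.28 to 0.35) (exact permutation p = 0.825).

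The factors varied between lines of a diet, with a median SD of 0.17 on the log2 scale. The median size of the log2 fold change between diets was 0.06. This is a difference between means of 5 lines, so it cannot be set directly against an SD of single lines. LPD 20 held the highest value in 26 of the 46 factors and lay above the median of the 10 lines in 40, or 87.0%, against 51.1% of all genes and 70.5% of genes with a mean of at least 1000. LPD 1 lay above the median in 10 factors (21.7%), NPD 15 in 13 (28.3%) and NPD 8 in 15 (32.6%). Genes with a mean of at least 1000 were also less often above the median in these lines, at 36%, 39.4% and 42.6% in this order. For all genes the shares in these lines were 49.4% to 49.7%. Each of these 3 lines held the lowest value in 7 to 10 factors. In LPD 20 the mean log2 deviation from the gene mean was 0.21 for eIF3 and 0.23 for eIF2B, but 0.06 for eIF4F and -0.001 for the eIF5 group. In LPD 1 it was -0.11 for eIF3 and -0.17 for eIF2B. The total of LPD 20, 18324979, was also the highest of the 10 lines, and its part in this pattern was not tested. Taken as a share of the total of each line, the factors held 1.67% ± 0.0558 in LPD against 1.67% ± 0.0521 in NPD (SD, n = 5 each), from 1.61% in NPD 15 to 1.76% in LPD 20. Over the 10 lines, the highest value of a factor was at the median 1.43 times the lowest, and 1.42 times for the 42 factors with a mean of at least 1000, against 1.46 times for all genes at that level.

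**Figure D4:**
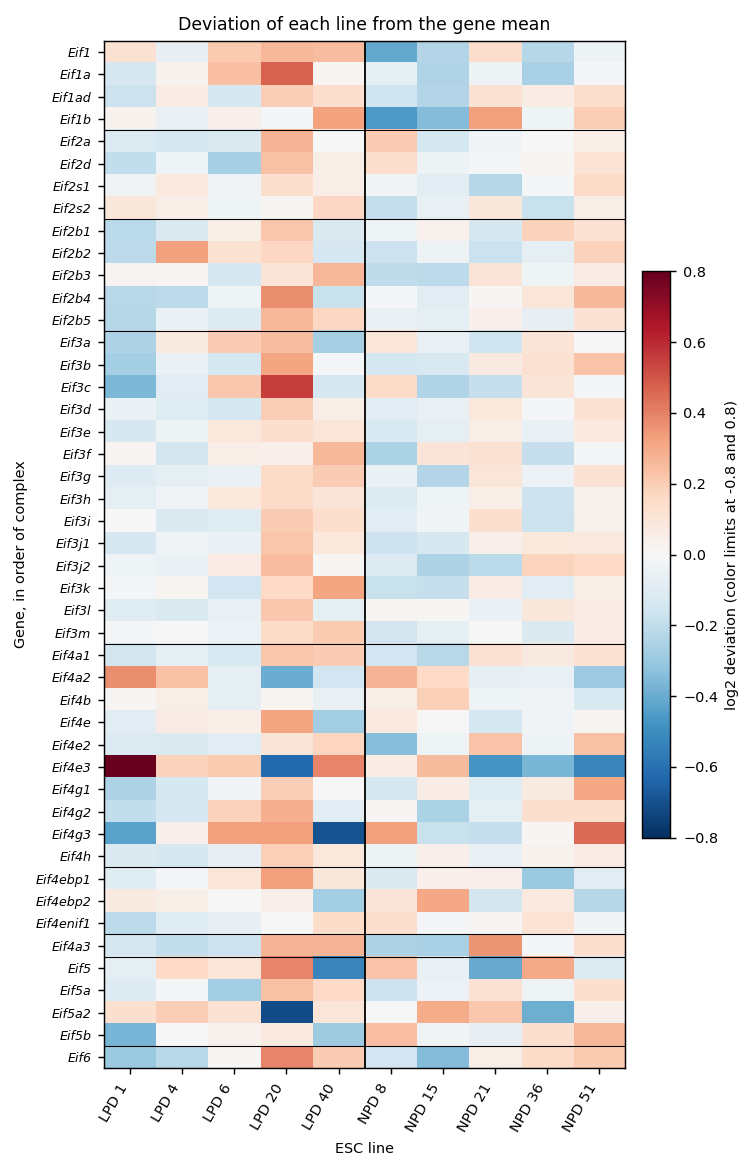
Log2 deviation of each of 10 lines (columns) from the mean of each of 46 genes (rows, grouped by complex), in red above and blue below the mean, with colors limited at -0.8 and 0.8. The column of LPD 20 is red in most rows and blue in Eif4a2, Eif4e3 and Eif5a2, where LPD 20 had the lowest value.

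Paralogs differed in which lines were high. Eif4a2, the second eIF4A gene, was highest in LPD 1 (16829) and lowest in LPD 20 (9888), while Eif4a1 was highest in LPD 20 (40991). Per kb, Eif4a1 therefore had 2.35 times the level of Eif4a2 in LPD 1, 2.50 times in NPD 8, 4.44 times in NPD 51 and 5.15 times in LPD 20. By diet the ratio was 3.55 ± 1.16 in LPD against 3.4 ± 0.836 in NPD (SD, n = 5 each), so it separated lines of the same diet and not the diets. Eif5a2 was lowest in LPD 20 (155) and second lowest in NPD 36 (194), against 255 to 314 in the other 8 lines, and Eif5a had 679.9 times its level per kb in LPD 20 against 265 to 451 in the rest.

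**Figure D5:**
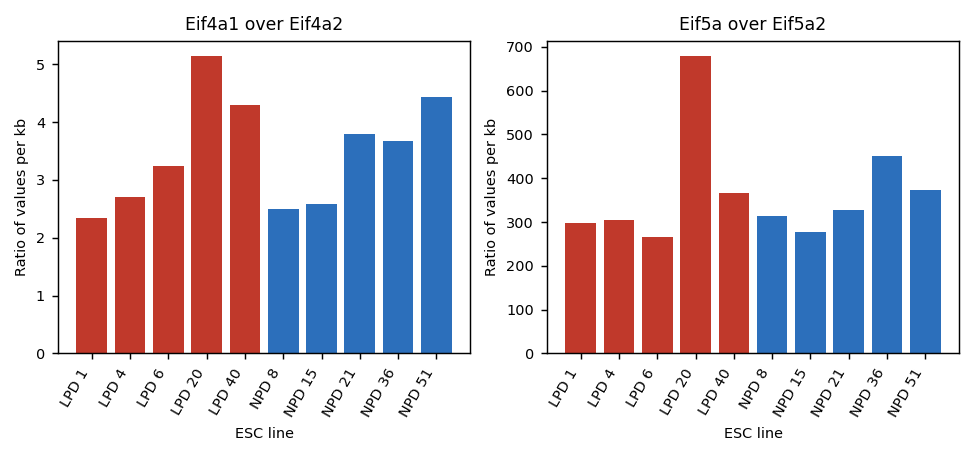
Ratio of values per kb of Eif4a1 over Eif4a2 (left) and Eif5a over Eif5a2 (right) in each line, as bars from 0, LPD lines in red and NPD lines in blue. Both ratios are highest in LPD 20, at 5.15 and 679.9.

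The 46 factors lay on 16 autosomes, and 3 pairs were less than 1 Mb apart, Eif4a1 and Eif5a at 244 kb, Eif2b5 and Eif4g1 at 159 kb and Eif2s2 and Eif6 at 927 kb. Log2 fold changes of these 6 genes ran from -0.08 to 0.11, and no pair stood apart from 0 beyond its error. Over 472 genes of chromosome 3, which holds Eif2a, Eif4e and Eif5a2, the median log2 deviation of NPD 8 from the median line was 0.18. It was -0.04 to 0.04 in the other lines, and the cause was not tested. Subtracting each line's chromosome median left 28 factors above 0, Eif1 at 0.30 and Eif4e at 0.05, against 0.03 for Eif4e before.

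Other genes of translation were compared from lists of related factors, with 53 genes in all. Of these, 25 were above 0 and 28 below, 1 had an unadjusted p under 0.05 (1.89%, against 5.02% of all genes) and 0 passed adjustment. That gene was Ppp1r15b, the constitutive subunit that directs a phosphatase to eIF2 alpha. Its values were 3605, 3482, 3607, 2995 and 3155 in LPD and 2976, 2812, 2829, 2716 and 2605 in NPD, so the LPD lines lay above all NPD lines, by a small gap between LPD 20 and NPD 8. Groups did not overlap, in either direction, in 1.02% of all genes tested. The means of Ppp1r15b were 3369 ± 279 in LPD against 2787 ± 138 in NPD (SD, n = 5 each). On the log2 scale they were 0.27 apart (standard error 0.08), with an exact permutation p of 0.00794, the smallest that 5 lines against 5 allow, and adjusted p = 0.665 (limma; 0.356 to 1.0 over the alternatives). The stress-induced subunit gene Ppp1r15a had 716 ± 199 in LPD against 552 ± 105 in NPD (SD, n = 5 each), highest in LPD 1 at 1031.

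The 4 kinases of eIF2 alpha showed no difference beyond the spread, with exact permutation p-values of 0.103 to 0.984. Among 15 genes of mTORC1 and Mnk signaling, 6 were above 0 and 9 below, and the smallest p was that of Rheb, the GTPase that activates mTORC1, at 0.18 on the log2 scale (standard error 0.09, exact permutation p = 0.0556, adjusted p = 0.994 by limma). Of 11 poly(A) tail and recycling factors 5 were above 0, and Pabpc4 had the smallest limma p, at 0.10 (standard error 0.09). Of 13 elongation factors 8 were above 0, with a median of 0.05, and the smallest limma p was that of Eef1b2, at 0.20 (standard error 0.12, exact permutation p = 0.167). The largest log2 fold change of the list was that of Eef2k, the kinase of eEF2, at 0.33 (standard error 0.23, exact permutation p = 0.23), and the smallest exact permutation p that of Tsfm, a mitochondrial elongation factor, at 0.0397 (log2 fold change 0.14, standard error 0.08, adjusted p = 0.994 by limma). In the 5 termination factors 2 were above 0 and Etf1 had 0.12 (standard error 0.11), and both mitochondrial initiation factor genes were below 0, Mtif3 at -0.20 (standard error 0.19).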

How the data were processed

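RNA sequencing of 10 ESC lines, 5 per diet, was analysed with each line as 1 replicate, and 0 columns were without a mapped line. The authors trimmed reads with cutadapt, filtered them by quality and quantified transcripts with Salmon on GRCm38 (release 88). The table that the authors deposited holds a signal per gene, normalized with DESeq2 by its name; the summing of transcripts to genes is not given in the sources used here. Values are not whole reads, so no count model was used.

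Genes with a mean of at least 10 were tested on log2(value + 1) with limma 3.58.1 under R 4.3.3, with a mean-variance trend in eBayes and diet as the only term, and Benjamini-Hochberg adjustment over 14354 genes. A large pseudocount relative to a low value understates its fold change. Single genes were also compared by two-sided exact permutation of mean log2 values over 252 assignments, for which the smallest p is 0.00794. P-values judge the difference between the diets against the spread between lines. The limma step was tested on simulated data with planted changes larger than the log2 fold change of any factor. That test therefore does not tell whether differences as small as those of the factors would be found. Shared sequence was counted as 31-base words in GENCODE M21 transcripts, and promoters are from RefSeq. Python 3.11.15 with scipy 1.17.1 was used for the rest.

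Members and lists were chosen with earlier results of these data known. Every member was named. Those given by line were members with an unadjusted p under 0.05, in each complex the members with the largest log2 fold change and the highest level per kb, and Eif2s1, Eif4e, Eif4g1, Eif4ebp1 and Eif5a. In each related list the gene with the smallest limma p was named, and Ppp1r15a, Eef2k and Tsfm were added, after values were seen. Alternatives were pseudocounts of 0.5 and 10, no filter, a minimum mean of 100, quantile normalization, rescaling to equal totals, array weights, no trend in limma, depth as a covariate, chromosome medians subtracted, an exact Mann-Whitney test, LPD 4 and NPD 15 left out, and each line left out.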

Additional observations from a re-analysis of the deposited data

Results flagged for a closer look

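In each of the 46 factors and both diets, the highest and the lowest line were compared with the rest of their group of 5, which gives 92 groups. In 5 of them 1 line lay apart by more than the critical gap, and chance flags about 1 in 20 groups, or 4.6 of 92. All 5 were LPD lines. LPD 20 stood apart in Eif2b4 at 1212 against 804 to 914 in the other LPD lines, in Eif3l, a peripheral eIF3 subunit, at 7959 against 6334 to 6567, and in Eif5a2, where it was low at 155 against 274 to 293. LPD 40 stood apart in Eif1b at 626 against 482 to 516 and in Eif4ebp2, where it was low at 5148 against 6203 to 6519. LPD 20 had the highest total of the 10 lines and LPD 40 the second lowest depth, and their part in these values was not tested.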

How the results depend on the processing

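No factor passed an adjusted p of 0.1 under any of the 21 alternative fits (smallest 0.711) or the exact Mann-Whitney test. Among all genes, 1 gene passed with array weights, and 0 to 40 passed with each line left out, 40 without LPD 40 and 1 without LPD 1, LPD 20 or NPD 8. Of the factors at an unadjusted p under 0.05, 2 higher in LPD became 1 without a trend and without LPD 4 and NPD 15, 0 by the exact Mann-Whitney test, and 1 to 2 with each line left out. A count of 0 lower in LPD became 1, Eif5b, after rescaling to the same total, quantile normalization, array weights and chromosome median subtraction, and 0 to 2 with each line left out, 2 without LPD 20 (Eif2b4 and Eif5b). Of the 46 factors, 23 had the same direction in every fit, and the other 23, all within 0.11 of 0, changed sign in at least 1. After rescaling to the same total the values were -0.0009 for Eif1ad, -0.0129 for Eif2b5, -0.0036 for Eif4a1, -0.0049 for Eif4e, -0.0218 for Eif4a3 and -0.0178 for Eif5. After quantile normalization they were -0.0121 for Eif2b5, -0.0194 for Eif4a1, -0.0141 for Eif4e, -0.0273 for Eif4a3 and -0.0224 for Eif5. With array weights they were -0.0217 for Eif1ad, -0.0248 for Eif2b5, -0.0298 for Eif4a1, -0.0669 for Eif4a3 and -0.0724 for Eif6. Without LPD 4 and NPD 15 they were -0.0321 for Eif1ad, -0.0008 for Eif4a3, -0.0334 for Eif5 and 0.0239 for Mtif3. With depth as a covariate they were 0.0029 for Eif2b4, 0.034 for Eif5a and 0.0686 for Mtif3. With each line left out the ranges were -0.0216 to 0.0809 for Eif1ad, -0.0426 to 0.0804 for Eif2b5, -0.0209 to 0.0705 for Eif4a1, -0.0456 to 0.1019 for Eif4e, -0.0538 to 0.1024 for Eif4a3, -0.0826 to 0.1511 for Eif5, -0.0594 to 0.0697 for Eif5a and -0.0563 to 0.1152 for Eif6. The median of the factors shifted between -0.04 and 0.07 over the fits, with a change of sign. The SD of the line medians was 0.10, a spread of single lines and not the error of a difference between diets. The cause of these shifts was not tested. No paired analysis was possible because the line numbers of the diets are not shared. Depth was lowest in LPD 4, 40 and 6, which limits Eif4e3 and Eif5a2 most.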
